A study of Mus musculus with 32 samples.

Results

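The G protein-coupled receptor genes Gpr146, Gpr65 and Mc5r were followed over 32 arrays of murine Ba/F3 cell lines, with 8 arrays for each of 4 lines. They were chosen from these same measurements, as receptor genes whose values lay far apart within a line or differed between odd and even array numbers, and they are 3 of the 19938 genes named on the array. Each was measured by 1 probe set, 10526943 for Gpr146, 10397645 for Gpr65 and 10456513 for Mc5r. The values by line and by odd or even number chose the genes, so levels, spread and odd-even differences of the 3 genes are described here without a test. Limma calls and an outlier rule were applied to the 3 genes only in the closing checks, which are no evidence of a difference. Gpr146 had a wide range in 3 lines and Gpr65 in 1. The range of Mc5r was at most 0.83 on the log2 scale, and its odd and even arrays were apart in 2 lines.

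Ba/F3 is an interleukin-3-dependent murine pro-B cell line. All 4 lines carry human gp130, the signal transducer of the IL-6 family, and Ba/F3-gp130, called the parental line below, carries nothing further. Ba/F3-IL-12Rβ1-IL-23R cells, the natural receptor line, additionally hold both chains of the IL-23 receptor. Ba/F3-SyCyR(IL-23/2A) cells, the paired SyCyR line, hold the intracellular parts of both chains fused to nanobodies against mCherry and GFP, expressed from 1 open reading frame with a 2A peptide. Ba/F3-SyCyR(IL-23R) cells, the single SyCyR line, hold only IL-23R fused to the GFP nanobody. The receptors were introduced by retroviral transduction, the lines were selected and cultured apart for weeks, and each receptor is represented by 1 line. Cells were kept without serum for 3 h, and the protocol names a treatment of 60 min at 100 ng/ml of a ligand, namely HIL-23, the GFP-mCherry fusion or 3xGFP, with CHO-K1 supernatant as control. The labels do not say which array received a ligand. They number the arrays of each line from 13 to 20, and odd and even numbers are used below only as names of 2 sets of 4 arrays. The array type is the same throughout. The methods name HIL-6, a fusion of IL-6 and its soluble receptor, in the growth medium of Ba/F3-gp130 cells. For transduced lines they describe removal of HIL-6 and selection for growth on the synthetic ligands. Growth factor and selection history may therefore differ between lines and cannot be told apart from the receptor. The methods name fewer independent biological replicates than a line has arrays, so that arrays of a line may share one.

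Values are RMA values on the log2 scale, in which 1 unit is a 2-fold difference. RMA gives no detection call. The median over all probe set means, 7.04, served as a reference for dim probe sets, since a value under it cannot be told from background with certainty. Array medians lay between 6.94 and 7.18. Of 14 measured pro-B cell markers 5 had line medians above 7.04 in every line. Among these Cd79a and Cd79b, which encode the signalling chains of the B cell antigen receptor, had line medians of at least 9.46 and 9.73, whereas the B lineage factors Pax5 and Ebf1 stayed at or below 6.54 and 5.80. Of 6 T cell markers 1 was above 7.04 in each line.

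GPCRs are 7-pass membrane proteins that pass an extracellular signal to heterotrimeric G proteins. Gpr65 encodes a proton-sensing receptor that is prominent in lymphoid and myeloid cells and, in the acid range, couples to the stimulatory G protein Gs and raises cAMP. Mc5r encodes a melanocortin receptor, which binds α-MSH and related peptides, also couples to Gs, and is best known from exocrine glands such as the sebaceous gland. Gpr146 encodes a receptor without an agreed ligand, and in mouse liver it has been linked to blood cholesterol. Adenylyl cyclases make cAMP, phosphodiesterases break it down, and protein kinase A and CREB act downstream of it.

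The sequences upstream of Gpr146 and Gpr65 are shown because STAT3 and CREB, the factors downstream of IL-23 and of cAMP, have known DNA motifs. These genes separated the odd from the even arrays. Mc5r did so too, in natural receptor and paired SyCyR cells, but no window of Mc5r was used. RefSeq lists 3 start sites for Gpr146 and 1 for Gpr65. The 250 bases before the second Gpr146 start (chr5:139380389-139380638, plus strand) and before the Gpr65 start (chr12:98268385-98268634, plus strand) are given 5′ to 3′ from RefSeq on GRCm38.p6, and capitals mark motif matches.
Gpr146: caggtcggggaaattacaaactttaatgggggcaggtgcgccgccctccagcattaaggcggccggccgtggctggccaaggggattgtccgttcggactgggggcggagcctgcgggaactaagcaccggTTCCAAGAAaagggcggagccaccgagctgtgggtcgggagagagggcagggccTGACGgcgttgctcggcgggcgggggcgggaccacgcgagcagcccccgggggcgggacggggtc
Gpr65: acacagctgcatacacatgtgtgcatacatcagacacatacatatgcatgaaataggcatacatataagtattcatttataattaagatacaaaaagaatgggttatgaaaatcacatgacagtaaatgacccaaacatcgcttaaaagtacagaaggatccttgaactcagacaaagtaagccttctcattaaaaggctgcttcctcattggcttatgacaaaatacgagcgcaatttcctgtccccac
Searched on both strands were the STAT motif TTCNNNGAA, the cAMP response element TGACGTCA, its core TGACG, which the full element contains, and the E-box CACGTG. The second Gpr146 window held 1 STAT match and 1 core match. The first Gpr146 window held 1 core match, the third held no match, and the Gpr65 window held none. In all 32851 RefSeq windows of this length, a STAT match occurred in 7.02%, the core in 17.8%, the full element in 1.55% and the E-box in 6.02%. These shares are per window, whereas Gpr146 had 3 windows, of which the one with the most matches is printed.

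Gpr146 mRNA was at a similar level in all parental arrays and split the arrays of every other line. In parental cells the odd arrays (13, 15, 17 and 19) read 8.04, 7.85, 7.47 and 7.77, and the even arrays (14, 16, 18 and 20) read 7.94, 7.82, 7.55 and 7.75. Both sets overlapped, with arrays 17 and 18 lowest. In natural receptor cells the odd arrays read 11.08, 11.14, 10.51 and 10.74 against 8.74, 8.41, 7.82 and 8.55 in the even ones. Every odd array was above every even array, and the odd mean was higher by 2.49 (5.60-fold). In paired SyCyR cells the odd values were 10.39, 10.20, 10.01 and 10.12 and the even values 7.76, 7.92, 7.43 and 7.63. Here too the sets were apart, by 2.49 in the mean (5.64-fold). Single SyCyR cells had odd values of 9.51, 8.79, 9.04 and 9.04 and even values of 8.07, 7.82, 7.67 and 8.07. The sets did not overlap, and the mean difference was 1.19 (2.27-fold), less than in the lines with both receptor chains.

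Such a split is uncommon on the array. Odd arrays lay above even arrays without overlap and by at least 1.5-fold for 0.85% of 23410 probe sets in natural receptor, 0.513% in paired SyCyR, 0.15% in single SyCyR and 0 in parental cells. The genes were chosen by this pattern, so the percentages only set its scale. The range of Gpr146 over 8 arrays was 3.32 in natural receptor, 2.96 in paired SyCyR and 1.84 in single SyCyR cells, and 14, 11 and 30 probe sets in the respective line had a range at least as wide, itself included. In parental cells the range was 0.57, reached or passed by 1136 probe sets. Differences between successive numbers were close to each other within a line. They lay between 2.19 and 2.73 in natural receptor, between 2.28 and 2.64 in paired SyCyR and between 0.97 and 1.44 in single SyCyR cells, and between -0.07 and 0.10 in parental cells.

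**Figure D1:**
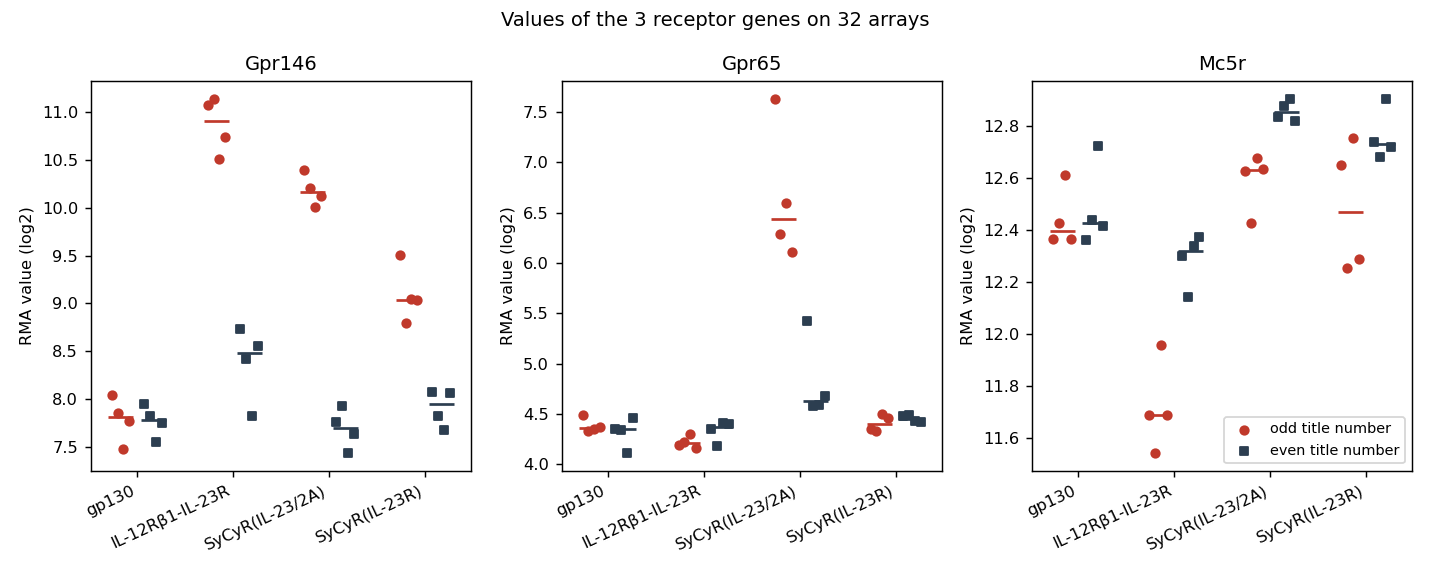
RMA values (log2) of Gpr146, Gpr65 and Mc5r on each array by line, with odd title numbers as circles, even ones as squares and a bar at the median of 4 arrays, each panel with its own axis. Gpr146 separates the sets in 3 lines, Gpr65 in paired SyCyR cells, where 7.63 on array 13 is the highest value, and Mc5r varies over less than 1 unit in each line.

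Gpr65 was dim in 3 lines and higher in the other, though mostly still under 7.04. In parental cells its values lay between 4.11 and 4.49, with a median of 4.35. Natural receptor cells gave 4.16 to 4.41 with a median of 4.26, and single SyCyR cells 4.34 to 4.50 with a median of 4.44. These are low values on their arrays, at percentiles between 5.60 and 10.0 of all probe sets. In paired SyCyR cells the odd arrays read 7.63, 6.28, 6.59 and 6.11 and the even arrays 5.42, 4.58, 4.59 and 4.67. No odd array overlapped an even one, and only array 13 was above 7.04. Odd arrays of this line stood at percentiles 32.3 to 59.0, and the even ones at 10.7 to 21.7. The difference of the means was 1.84, and it is not given as a fold because most values lie where RMA compresses differences. Successive numbers differed by 1.44 to 2.21. The range of 3.05 was equalled or passed by 10 probe sets in paired SyCyR cells, itself included, whereas 20229 and 22430 probe sets were at least as wide as Gpr65 in natural receptor and single SyCyR cells. Array 13 was the highest of the odd and array 14 the highest of the even arrays.

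Mc5r had a bright probe set, between the 92.9 and 97.5 percentile of all 32 arrays, and its odd arrays were lower rather than higher. The level rests on this 1 probe set, and whether its signal comes from Mc5r mRNA alone was not tested. In natural receptor cells the odd values were 11.69, 11.54, 11.96 and 11.69 and the even values 12.30, 12.14, 12.34 and 12.37. The sets did not overlap, and the odd mean was lower, with a difference of -0.57. In paired SyCyR cells the odd arrays read 12.63, 12.43, 12.68 and 12.64 and the even arrays 12.83, 12.88, 12.90 and 12.82, again apart, with a difference of -0.27. In single SyCyR cells the values were 12.65, 12.25, 12.75 and 12.29 against 12.74, 12.68, 12.90 and 12.72. These overlapped, with a mean difference of -0.28. In parental cells the odd arrays read 12.36, 12.43, 12.61 and 12.37 and the even ones 12.36, 12.44, 12.72 and 12.42, so that arrays 17 and 18, lowest for Gpr146 in that line, were highest for Mc5r. All 4 successive pairs were lower at the odd number in each of the 3 lines with an added receptor. In parental cells 3 of the 4 pairs were lower too, with differences between -0.11 and 0.005.

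For scale, odd arrays lay below even arrays without overlap, whatever the size, for 3.27% of probe sets in natural receptor, 1.96% in paired SyCyR, 0.564% in single SyCyR and 0.688% in parental cells. The differences of the Mc5r means stayed under 1.5-fold, whereas 3 of the 4 successive pairs in natural receptor cells exceeded it, at 1.53-fold, 1.51-fold and 1.61-fold. By size, 42 probe sets fell by at least as much as Mc5r in natural receptor, 178 in paired SyCyR and 44 in single SyCyR cells, itself included, out of 23410. The range was 0.83 in natural receptor, 0.48 in paired SyCyR, 0.65 in single SyCyR and 0.36 in parental cells, and 935, 3702, 1720 and 6606 probe sets were at least as wide.

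**Figure D2:**
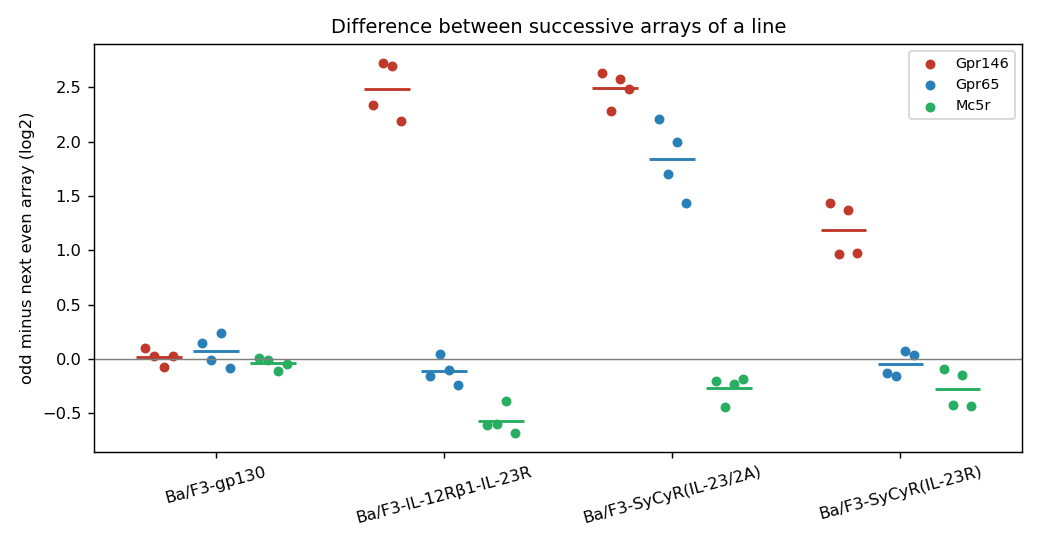
Difference (log2) between each odd array and the next even array, for the 3 genes and 4 lines, with 4 points per gene and line and a bar at the difference of the means. Gpr146 lies at 2.49 in natural receptor and paired SyCyR cells and 1.19 in single SyCyR cells, Gpr65 at 1.84 in paired SyCyR cells only, and Mc5r between -0.57 and -0.04.

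Levels over all 8 arrays are given in rising order of the line means with their SD (n = 8 arrays), and differences with the SE of the limma fit. Since the values by line were part of the choice, no p is given for them. A wide range in a line moves its mean and its error, so the even arrays alone are set beside these values. Gpr146 averaged 7.77 ± 0.19 in parental, 8.50 ± 0.68 in single SyCyR, 8.93 ± 1.34 in paired SyCyR and 9.62 ± 1.37 in natural receptor cells. The largest difference, between natural receptor and parental cells, was 1.85 (SE 0.47). Paired SyCyR and parental cells differed by 1.16. Neighbours in this order differed by less than 2 SE.

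On the even arrays alone, Gpr146 in natural receptor cells was above parental cells by 0.62 (SE 0.16), and paired SyCyR cells were below natural receptor cells, with a difference of -0.70. Paired SyCyR and parental cells differed by -0.08 and single SyCyR and parental cells by 0.14, both less than the SE. The even arrays of both SyCyR lines thus lay near the level of parental cells, and those of natural receptor cells lay above it.

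For Gpr65 the line means were 4.28 ± 0.10 in natural receptor, 4.35 ± 0.11 in parental, 4.43 ± 0.06 in single SyCyR and 5.74 ± 1.11 in paired SyCyR cells. Paired SyCyR cells exceeded parental cells by 1.38 (SE 0.26), natural receptor cells by 1.46 and single SyCyR cells by a similar amount (-1.30 for single minus paired). The other 3 pairs of lines differed by at most 0.16, less than the SE. On the even arrays paired SyCyR cells were above parental cells by 0.50 and above natural receptor cells by 0.49 (SE 0.14), and single minus paired was -0.36. All of these means lie under 7.04.

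Mc5r averaged 12.003 ± 0.33 in natural receptor, 12.46 ± 0.13 in parental, 12.62 ± 0.23 in single SyCyR and 12.73 ± 0.16 in paired SyCyR cells. It was higher than in natural receptor cells by 0.72 in paired SyCyR (SE 0.11) and by 0.62 in single SyCyR cells, and natural receptor cells differed from parental cells by -0.46. Parental, single SyCyR and paired SyCyR cells, neighbours in this order, differed by 0.16 and by 0.10 (-0.10 for single minus paired), less than 2 SE. On the even arrays the differences from natural receptor cells were 0.57 in paired and 0.47 in single SyCyR cells (SE 0.075), and the order of the 4 lines was the same. Differences from parental cells on the even arrays were 0.37 in paired SyCyR, 0.28 in single SyCyR and -0.20 in natural receptor cells (SE 0.075). Each of these was more than 2 SE, so there both SyCyR lines also lay apart from parental cells.

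Markers of blood cells also differed between the lines. Probe sets counted as called when the limma p, adjusted after Benjamini-Hochberg, was under 0.05 with a change of 1.5-fold or more. Against parental cells 2.91% of probe sets were called in natural receptor, 0.56% in paired SyCyR and 1.52% in single SyCyR cells, and on even arrays alone 2.49%, 0.35% and 1.41%. Between paired SyCyR and natural receptor cells these shares were 2.62% and 2.57%, between single and paired SyCyR cells 1.05% and 0.957%, and between single SyCyR and natural receptor cells 3.12% and 3.03%. Of 42 measured markers of pro-B cells, mast cells, granulocytes and macrophages or T cells, 1 was called higher and 3 lower in natural receptor, 1 higher in paired SyCyR, and 4 higher and 1 lower in single SyCyR than in parental cells. Cd79a was higher by 1.01 in natural receptor and 0.76 in paired SyCyR cells. Mpo, the granule enzyme myeloperoxidase, was lower by -2.54 in natural receptor and by -1.89 in single SyCyR cells. Ctsg, the granule protease cathepsin G, was lower in natural receptor (-1.28) but higher in single SyCyR cells (1.33). Gata2, a factor of mast cells and progenitors, was lower in natural receptor cells (-0.68), and Fcer1a, a chain of the IgE receptor, higher in single SyCyR cells (1.396). Itgam, an integrin of myeloid cells, was higher by 1.86 and Lyz2, lysozyme, by 1.43 in single SyCyR cells. The mean of the 12 granulocyte and macrophage markers per array lay between 6.89 and 7.11 in parental, 6.59 and 6.78 in natural receptor, 6.93 and 7.27 in paired SyCyR and 7.04 and 7.50 in single SyCyR cells. The part of these markers in the levels of the 3 receptors was not tested. Between odd and even arrays none of the 42 markers was called in any line. At an unadjusted p under 0.05, 4 were higher and 1 lower in natural receptor cells, 0 and 1 in paired SyCyR, 1 and 0 in single SyCyR and 0 in parental cells. Over all probe sets this threshold was passed by 9.5% higher and 7.92% lower in natural receptor, 4.78% and 2.11% in paired SyCyR, 2.29% and 1.24% in single SyCyR and 0.466% and 0.645% in parental cells, and these shares are the scale for all unadjusted counts that follow.

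Among the other measured genes of the same families, only Gpr4 was called between odd and even arrays. Gpr4 and Gpr132 were the other measured proton-sensing receptor genes. Gpr4 was called higher on the odd arrays of natural receptor cells, by 0.82 (limma adjusted p = 4.89e-05), where 0.859% of all probe sets were called higher, and its odd values lay between 7.39 and 7.86 and its even ones between 6.61 and 6.94. Its differences were 0.33 in paired SyCyR and 0.08 in single SyCyR cells and not called. Gpr132 differed by 0.11 or less in these 3 lines. At an unadjusted p under 0.05, 1 of these 2 genes was higher in natural receptor, 1 in paired SyCyR, 0 in single SyCyR and 0 in parental cells. Gpr65 and Gpr4 thus had their largest odd-even difference in different lines, a contrast that was not tested. Of 7 other genes of the melanocortin system, among them the receptors Mc1r, Mc2r, Mc3r and Mc4r, the accessory protein genes Mrap and Mrap2 and the precursor gene Pomc, none was called by limma in any line. At an unadjusted p under 0.05, 3 were higher in natural receptor, 1 in paired SyCyR, 1 in single SyCyR and 0 in parental cells. In natural receptor cells Mrap differed by 0.45, Mc4r by 0.25 and Mc1r by 0.24, and Mc2r by -0.13. In paired SyCyR cells Mrap differed by 0.39 and Mc2r by -0.09, beside -0.27 for Mc5r. The line medians of the 4 other melanocortin receptors were all under 7.04.

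Few genes downstream of Gs were called. None of 21 genes of Gs and cAMP synthesis and action, 12 phosphodiesterase genes and 8 receptor kinase and arrestin genes was called by limma between odd and even arrays in any line. Unadjusted p-values under 0.05 were reached by at most 2 genes in either direction per list and line. Among 11 CREB target genes Fos, an immediate early gene that STAT3 also drives, was called higher, by 1.71 in natural receptor and 1.48 in paired SyCyR cells. At an unadjusted p under 0.05, 4 of the 11 were higher and 1 lower in natural receptor, 3 higher in paired SyCyR, 1 higher in single SyCyR and 0 in parental cells. Dusp1, a phosphatase of MAP kinases in this list, had differences of 0.63 in natural receptor and 0.65 in paired SyCyR cells that were not called. The median difference of the cAMP list was -0.05, 0.00 and -0.03 in natural receptor, paired SyCyR and single SyCyR cells, beside 0.00 over all probe sets.

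Among 64 other leukocyte GPCR genes, 5 were called higher on odd arrays in natural receptor, 5 in paired SyCyR, 0 in single SyCyR and 0 in parental cells, and none was lower. Over all probe sets the limma calls for higher were 0.859%, 0.47%, 0.137% and 0. At an unadjusted p under 0.05, 15 of the 64 were higher in natural receptor, 11 in paired SyCyR, 8 in single SyCyR and 0 in parental cells, and 2 were lower in each of the first 3 lines. Ffar2, a receptor for short-chain fatty acids, was higher by 1.18 and 0.77 in natural receptor and paired SyCyR cells, Gpr171, a receptor of lymphocytes, by 1.11 and 1.05, P2ry13, an ADP receptor, by 0.88 and 1.04, and Lpar6, a receptor for lysophosphatidic acid, by 0.63 and 1.11. Ccr4 was called only in natural receptor and Cxcr2 only in paired SyCyR cells, by 0.60 and 1.26, and whether the lines differ in them was not tested. None of these 64 genes had a difference as large as that of Gpr146 in natural receptor or paired SyCyR cells. The list named 75 genes, and those without a probe set of their own symbol, such as Adora3, were not measured here. The authors list Adora3 among the most upregulated molecules of both lines, so Gpr146 is not ranked among all leukocyte GPCRs.

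The STAT3 target list held differences of the size seen in Gpr146. Of 12 genes, 9 were called higher on odd arrays in natural receptor, 7 in paired SyCyR, 6 in single SyCyR and 0 in parental cells. At an unadjusted p under 0.05, 0 were reached in parental cells. The list was chosen with earlier results of these data known, and the authors report Pim1, Socs3 and Osm as regulated in them. Its counts therefore serve only as a scale. Calls for higher over all probe sets were 0.859%, 0.47%, 0.137% and 0 in the respective lines. The median difference was 1.98, 1.62 and 0.90 in the first 3 of these lines, and over all probe sets it was 0.00 in each. Socs3, the feedback inhibitor of JAK and STAT signalling, was higher by 4.57, 3.77 and 2.98, and Pim1, a serine and threonine kinase, by 2.30, 2.53 and 1.96. Gpr146 at 2.49, 2.49 and 1.19 had values between those of members of this list in each line.

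**Figure D3:**
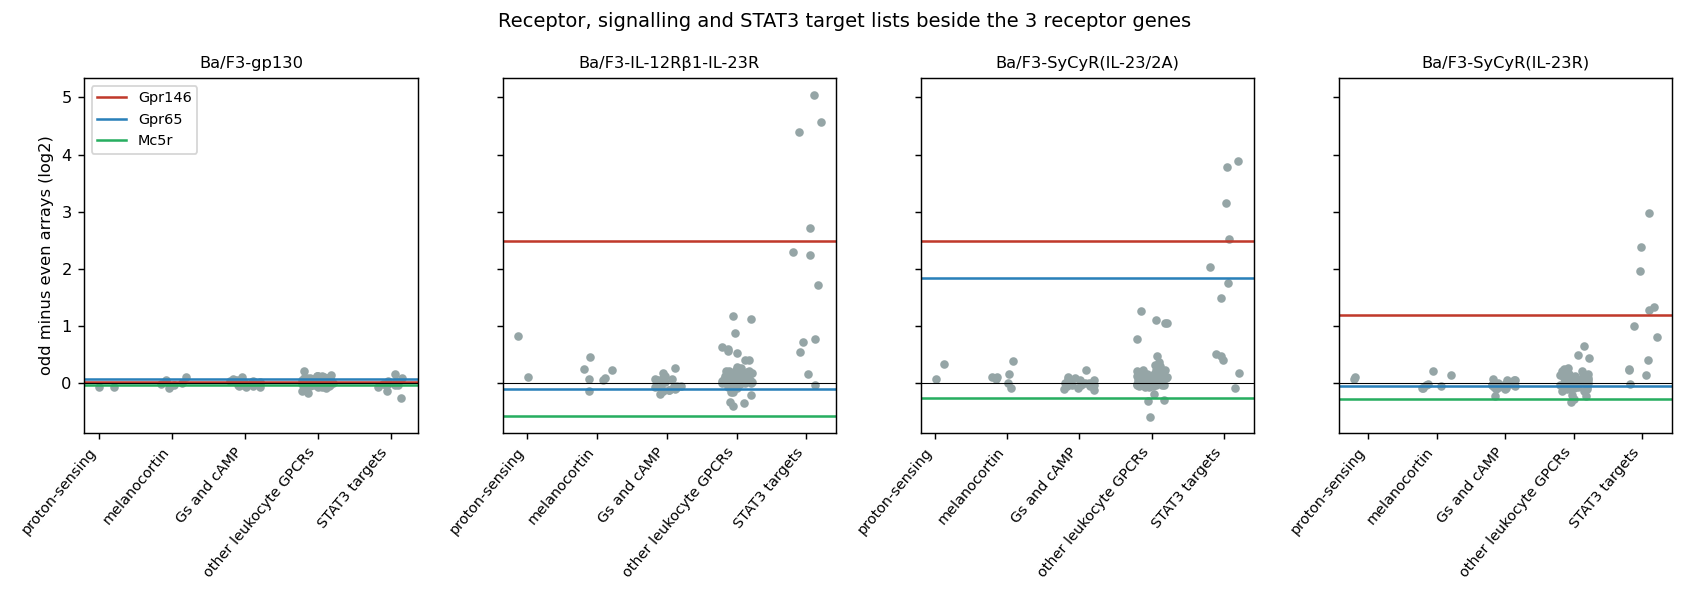
Odd minus even difference (log2) for each gene of 5 lists (grey points, scattered sideways for legibility) by line, with the 3 receptor genes as coloured lines and without them among the points. In natural receptor cells the line of Gpr146 at 2.49 runs above all receptor and cAMP genes shown and through the STAT3 targets. In parental cells all points lie near 0.

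The genes with the pattern most like each receptor were sought over 32 arrays, as Pearson's r of the deviations from the median of each line, among 11085 or 11086 other genes with a mean above 7.04. The arrays of 3 lines form an odd and an even set, so r measures mostly this split, and it is given as a description. For Gpr146 they were Lif (r = 0.97), a cytokine that signals through gp130, the stress gene Gadd45g (0.97), Zfp36 (0.97), whose product destabilises cytokine mRNA, Arid5a (0.97), whose product stabilises Il6 mRNA, and Osm (0.97), another cytokine of the gp130 family. Their odd minus even differences were at least 1.74 in natural receptor, 1.32 in paired SyCyR and 0.68 in single SyCyR cells and 0.08 or less in parental cells. All 5 had their largest difference in natural receptor cells, whereas Gpr146 had nearly equal ones in natural receptor and paired SyCyR cells.

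For Gpr65 the likeness was weaker. The nearest genes were Cpeb2 (r = 0.76), whose product binds mRNA and controls translation, Ffar4 (0.72), a GPCR for long-chain fatty acids, Med7 (0.66), a subunit of the Mediator complex, Lpar6 (0.65) and Smad7 (0.64), an inhibitor of TGF-β signalling. In paired SyCyR cells they differed by 0.46, 0.70, 0.26, 1.11 and 0.59. Lpar6 also differed in natural receptor cells, by 0.63, where Gpr65 was flat.

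For Mc5r they were 4921524J17Rik (r = 0.86), B3gnt2 (0.84), which encodes an enzyme that builds polylactosamine chains, and the zinc finger genes Zfp605 (0.83), Zfp128 (0.83) and Zfp382 (0.82). Genes with the opposite pattern were Lfng (r = -0.89), a modifier of Notch receptors, Mob3c (-0.89) and the immediate early gene Ier2 (-0.88). All 5 like genes were lower on odd arrays of the 3 lines with an added receptor, and of these 15 differences only that of Zfp128 in natural receptor cells, -0.65, was at least 1.5-fold.

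**Figure D4:**
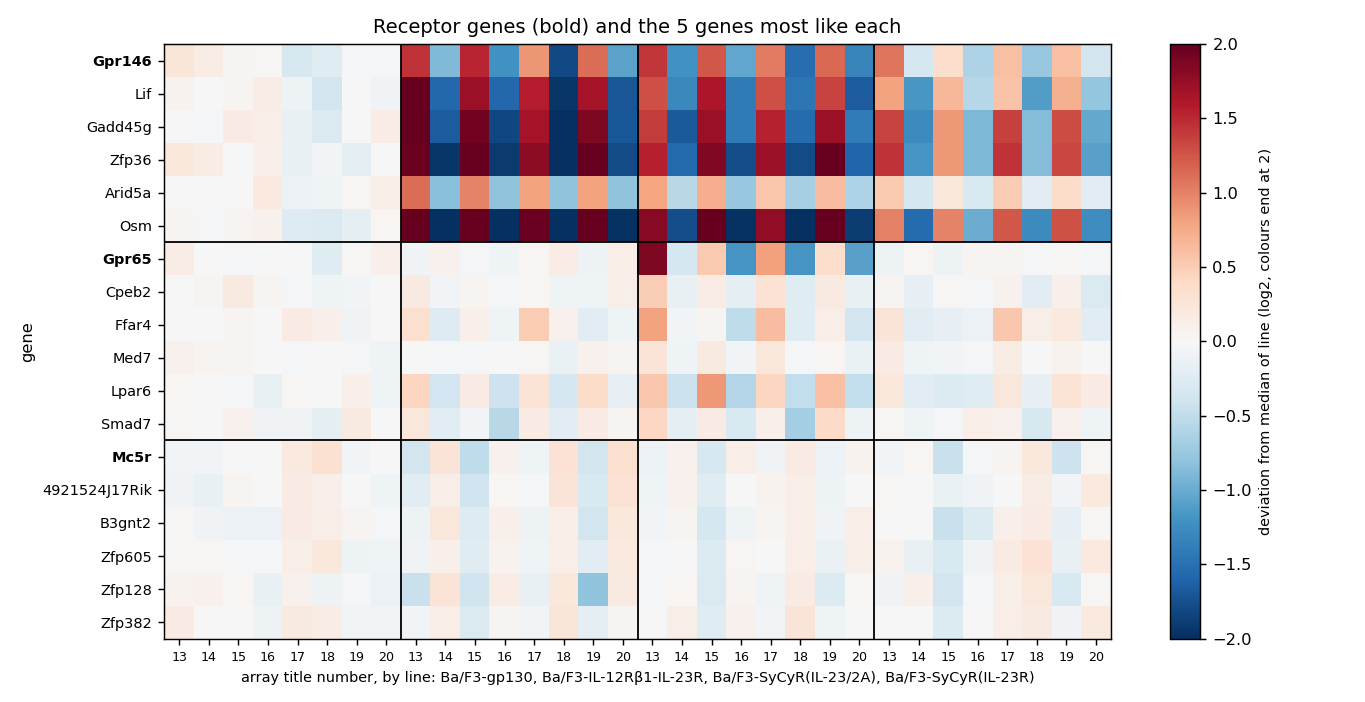
Deviation (log2 from the median within each line, colours end at 2 units) for Gpr146, Gpr65 and Mc5r, each followed by the 5 genes most like it, with arrays 13 to 20 of the 4 lines from left to right. Gpr146 and its nearest genes alternate from array to array in 3 lines, Gpr65 does so in paired SyCyR cells only, and Mc5r alternates weakly in the opposite sense.

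Neighbouring genes on the chromosomes were looked at for the same pattern, with 3 on each side in the GRCm38.p6 gene order. Next to Gpr146 on chromosome 5, 3110082I17Rik had odd minus even differences of 0.85 in natural receptor, 0.35 in paired SyCyR and 0.04 in single SyCyR cells, smaller than those of Gpr146 in each. The other 5 neighbours, Cox19, Cyp2w1, C130050O18Rik, Gper1 and Zfand2a, differed by 0.32 or less in each line. Around Gpr65 on chromosome 12, Flrt2, 1700019M22Rik, Galc, Kcnk10, Spata7 and Ptpn21 differed by 0.16 or less in paired SyCyR cells. Around Mc5r on chromosome 18, differences in natural receptor cells lay between -0.23 (Fam210a) and -0.02 (4930546C10Rik), against -0.57 for Mc5r, and its neighbour Mc2r differed by -0.13.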

How the data were processed

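RNA of 32 samples of 4 Ba/F3 lines was hybridized to Affymetrix Mouse Gene ST 1.0 arrays. The authors processed the arrays in the software Affymetrix Expression Console (RMA, sketch-quantile normalization), and the deposited values are on the log2 scale. Software versions are not given in the sources used here. RMA shrinks differences between dim values, and the number of arrays limits the precision. Lines were taken from the labels. The labels give no stimulation, so no stimulated group was formed. The methods state 4 independent biological replicates, a line has 8 arrays, and the labels do not say which arrays share a replicate. Arrays were fitted as separate samples, so p-values measure the spread between arrays. Between lines they are too small if arrays of a line share a culture. Between odd and even arrays, a culture shared by an odd and an even array would be a pairing, which the main fit ignores. With a block on successive numbers, calls for higher went from 201 to 208 in natural receptor, 110 to 119 in paired SyCyR and 32 to 35 in single SyCyR cells.

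The platform annotation gave 1 symbol to 21789 of 35556 probe sets, several to 1621 and none to 12146. All 23410 probe sets with a symbol were fitted with limma 3.58.1 under R 4.3.3 (lmFit, then eBayes, without covariates). Calls were made at p under 0.05 after Benjamini-Hochberg adjustment over all of them and a change of 1.5-fold or more. Lines were compared over 8 arrays each, and odd with even title numbers over 4 against 4. For genes on more than 1 probe set the brightest on average was used, and probe sets of several symbols named no gene. Named were the 3 members, the 5 genes most like each, members of 12 gene lists as examples, and, chosen after their values were seen, genes of the opposite pattern and neighbouring genes. The members and lists were chosen with earlier results of these data known. Counts of list genes leave out the 3 members. Both limma steps were tested on simulated data.

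Pairing by array number was checked by correlating how arrays with the same number departed from their line means. The lowest correlation was 0.374, 0.220 and 0.193 between the 3 lines with an added receptor, and -0.068, -0.039 and -0.010 between the parental line and these. With deviations from the mean of the odd or even set, which removes the odd-even difference, the parental line correlated as the others did, with a lowest value of 0.112, 0.088 and 0.072 against 0.115, 0.062 and 0.072, and medians between 0.25 and 0.35. Successive numbers of 1 line then correlated at 0.132 or more. No label states a pairing, and both blocks were run as alternatives. Alternatives were a filter on dim probe sets, all probe sets, array centring, arrays 17 and 18 left out, each array left out, odd or even arrays alone and blocks. Tables and figures used Python 3.11.15 (numpy 2.4.6, pandas 2.3.3, matplotlib 3.10.9). Promoter windows and gene order came from RefSeq tables of GRCm38.p6.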

Additional observations from a re-analysis of the deposited data

Results flagged for a closer look

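In 36 sets of 4 or 8 arrays (3 genes, 4 lines, all, odd or even arrays), 2 single values stood further from the rest than Dixon's 95% critical value allows. For independent sets of normally distributed values about 1 in 20 would do so by chance. These sets share arrays, and where odd and even arrays lie apart a single value can hardly stand out of 8. The share is therefore only a rough scale. In the paired SyCyR line Gpr65 read 5.42 on array 14, against 4.58 to 4.67 on the other 3 even arrays. Array 13 of that line was also the highest odd array for Gpr65, at 7.63. In the parental line Gpr65 read 4.11 on array 18, the lowest of 8, a value far under 7.04.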

How the results depend on the processing

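Among settings other than leaving out an array, 139 of 162 values of the line comparison and 74 of 76 of the odd and even comparison kept their direction and call (counts within 1.5 times), and 29 of 36 ranges moved by less than 1 SD. Reversals in the line comparison occurred on the even arrays alone, none of them called in either setting. They were Gpr65 in natural receptor minus parental cells (0.016) and Gpr146 in paired SyCyR minus parental (-0.078) and single SyCyR minus paired SyCyR cells (0.22).

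On even arrays alone calls were lost for Gpr65 in paired SyCyR minus parental (0.50), paired SyCyR minus natural receptor (0.49) and single SyCyR minus paired SyCyR (-0.36) and for Mc5r in paired SyCyR minus natural receptor (0.57) and single SyCyR minus natural receptor (0.47), and Gpr146 in paired SyCyR minus natural receptor (-0.70) was gained. On odd arrays alone, whose values chose Gpr146, it was gained in paired SyCyR minus parental (2.40), single SyCyR minus parental (1.31), paired SyCyR minus natural receptor (-0.69), single SyCyR minus paired SyCyR (-1.09) and single SyCyR minus natural receptor cells (-1.77), and Mc5r in natural receptor minus parental cells (-0.72). Probe sets called for paired SyCyR minus parental cells were 131 over all arrays, 82 on even and 243 on odd arrays. Fitting all probe sets, also those without a symbol, raised the counts of natural receptor, paired SyCyR and single SyCyR minus parental to 1038, 637 and 1582, from 681, 131 and 355. The count rose from 730 to 1160 for single SyCyR minus natural receptor and from 232 to 357 for odd minus even in natural receptor cells. In paired SyCyR minus parental, calls for lower rose from 46 to 532. Odd-even calls for higher fell from 110 to 109 in paired SyCyR and from 32 to 31 in single SyCyR cells. The share called higher then went from 56.2% to 41.1% in natural receptor, 64.9% to 16.5% in paired SyCyR and 57.2% to 15.5% in single SyCyR minus parental, from 50.3% to 35.0% in single SyCyR minus natural receptor, and from 64.1% to 49.3% in single minus paired SyCyR cells. Without arrays 17 and 18, 1 probe set was called in parental odd minus even, from 0. Array centring moved the share called higher in single SyCyR minus parental from 57.2% to 69.0%.

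The 3 genes were chosen on these values, so calls of theirs are used here only to compare settings. With the replicate block on the array number Gpr146 was also called in paired SyCyR minus parental (1.16) and single SyCyR minus natural receptor cells (-1.12), and the block changed no other call of the 3 genes.

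Ranges moved by more than 1 SD for Gpr146 (0.29), Gpr65 (0.16) and Mc5r (0.077) in parental cells without arrays 17 and 18, for Gpr65 in parental cells from second highest to second lowest array (0.12), for Mc5r in paired SyCyR cells likewise (0.25), and for Gpr65 after centring in natural receptor (0.37) and single SyCyR cells (0.26). With each array left out in turn, the call of Gpr146 in single SyCyR minus natural receptor (-1.38 to -0.91) was gained in 2 of 32 fits, without array 16 or 18 of natural receptor cells, and that of Mc5r in single SyCyR minus natural receptor (0.55 to 0.67) was lost in 4 for falling under 1.5-fold, without array 13, 15 or 19 of natural receptor or 18 of single SyCyR cells. The count for odd minus even in parental cells ran from 0 to 1, the latter without array 18. The cause of these changes was not tested.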
